A study of Mus musculus with 14 samples.

Results

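Mouse mammary basal cells carrying the surface antigen Thy-1 (Thy-1+CD24medCD49fhigh, 3 arrays) were compared with cells of the same CD24 and CD49f gate that lacked it (Thy-1-CD24medCD49fhigh, 3 arrays). Both groups were taken from the sample labels and made up 6 of the 14 arrays in the series. All cells came from untreated virgin female C57BL/6 mice (C57BL6/J in the growth notes), 6 to 8 weeks old by the labels, and the study's methods allow a somewhat older upper age. Freshly dissociated glands were stained with antibodies to CD24, CD49f and Thy-1 and, to remove other cells, to the blood and vessel antigens CD31, CD45 and Ter119, and the cells were sorted in 2 rounds. The methods also list an antibody to CD140a, a fibroblast antigen. RNA was amplified in 2 cycles, labelled and hybridised to Affymetrix mouse genome arrays. The comparison asks which genes set Thy-1+ basal cells apart from other cells of the gate that holds mammary repopulating units, the cells able to regrow a gland after transplantation. Neither labels nor methods tell if a replicate is an animal, a pool or a repeat of the same cells, so the p-values below measure only the spread between these samples, which may be technical.

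Thy-1 (CD90), encoded by Thy1, is a small glycoprotein tethered to the cell membrane by a lipid anchor, and is known from neurons, T cells, fibroblasts, perivascular cells and some progenitors. Basal mammary cells line the outside of the ducts, contract on oxytocin, rest on a laminin-rich basement membrane through CD49f-containing integrins, and include cells that rebuild the ducts on transplantation. The same tissue holds nerve sheath, capillaries, stroma and, near the nipple, stratified epithelium.

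The deposited log2 values were centred for each probe set on its mean over the 14 arrays, and a value gives a gene's level relative to that mean (0) and not to other genes. Probe sets with 1 symbol were averaged per gene, which with the unnamed or ambiguous probe sets gave 7190 rows. The median of all rows was -0.74, 0.08 and -0.51 in the Thy-1+ replicates 1, 2 and 3, and 0.17, -0.15 and 0.05 in the Thy-1- replicates. The values were therefore analysed both as deposited and with each array centred on its own median. The interquartile range was 1.72 log2 in Thy-1+ replicate 1 and 1.14 in replicate 3, against 0.66 in replicate 2 and 0.71 to 1.01 in the Thy-1- arrays.

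**Figure D1:**
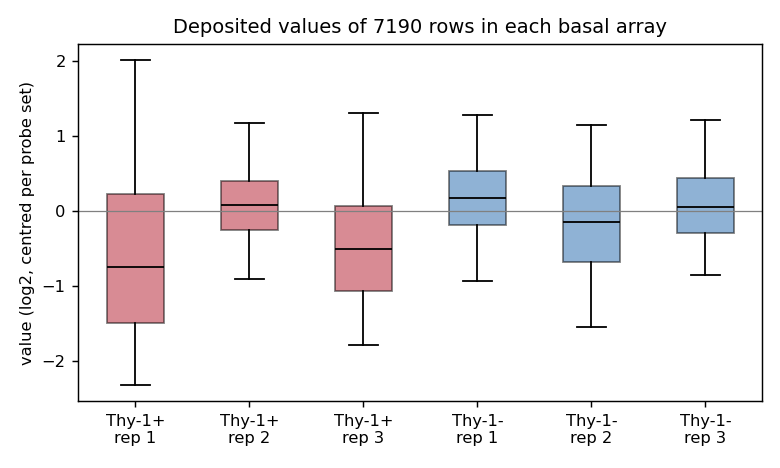
Deposited values (log2, centred per probe set) of 7190 rows in the 6 arrays, with Thy-1+ arrays in red and Thy-1- arrays in blue. Boxes span the interquartile range of the rows with the median as a black line, and whiskers reach the 5th and 95th percentiles; the boxes of Thy-1+ replicates 1 and 3 lie lowest, with medians of -0.74 and -0.51.

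The 3 Thy-1+ arrays did not form 1 group. Over the 7190 rows the array labelled Thy-1+ replicate 2 had a Pearson correlation of 0.76 with Thy-1- replicate 1 and of 0.43 and 0.42 with Thy-1- replicates 2 and 3, but of 0.00012 and -0.19 with Thy-1+ replicates 1 and 3. Those 2 Thy-1+ arrays had r = 0.24 with each other, and the Thy-1- arrays 0.14 to 0.46. These correlations are across genes, which are not independent replicates. Thy-1+ replicate 1 had 809 rows at least 1 log2 above the highest Thy-1- array and 1970 at least 1 log2 below the lowest, Thy-1+ replicate 3 had 349 and 1356, and Thy-1+ replicate 2 had 22 and 17. All 3 Thy-1+ arrays lay that far above the Thy-1- arrays in 1 row and that far below them in 4 rows. Values under -1 made up 42.7% and 28.0% of rows in Thy-1+ replicates 1 and 3. In Thy-1+ replicate 2 they made up 3.98%, and in the Thy-1- arrays at most 15.7%. Results below are given with all 6 arrays and, where it matters, without Thy-1+ replicate 2. That omission was chosen after the values had been seen. Which of the Thy-1+ arrays best represents the sorted cells was not tested.

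Thy1 itself followed the same division. It read 2.00, -0.07 and 3.03 in Thy-1+ replicates 1, 2 and 3, and -0.77, -0.10 and -0.36 in the Thy-1- arrays. Replicate 2 was 0.026 log2 above the nearest Thy-1- array on the values as deposited and within the Thy-1- range after median centring. The difference was 2.06 log2 (SE 0.71, two-sided limma adjusted p = 0.699), and without Thy-1+ replicate 2 it was 2.92 as deposited and 3.57 after centring (limma adjusted p = 0.0353 for the latter, against 0.0041 to 0.999 over the 11 alternative settings of the deposited values). Each SE here and below is that of limma, drawn toward a value pooled over all rows, and is not a gene's own spread. Of the antigens used to remove other cells, Pecam1 (CD31, endothelium) read 3.08, 0.04 and -0.43 against 1.19, -0.77 and -0.80, and Ptprc (CD45, leukocytes) read -0.55, -0.03 and 1.63 against -0.47, 0.04 and -0.10. Pecam1 was thus high in Thy-1+ replicate 1 and to a lesser degree in Thy-1- replicate 1, and Ptprc in Thy-1+ replicate 3. Pdgfra (CD140a) differed by 0.36 and Epcam, an epithelial adhesion gene, by -0.45 log2, and neither passed the test (limma).

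The lineage of the gate was checked against luminal arrays of the series. Krt14, a keratin of basal cells, lay between -0.05 and 1.94 in the 6 arrays, above its mean of -2.43 in CD24highCD49fmed luminal cells in every one of them. Acta2, the smooth muscle actin of contractile cells, lay between -0.21 and 1.84, against a luminal mean of -1.96. Krt18 and Krt19, keratins of luminal cells, read at most 0.43 and 1.15, both in Thy-1- replicate 3, against luminal means of 1.40 and 1.76. Krt14, Acta2, Krt18 and Krt19 differed between Thy-1+ and Thy-1- by 0.19, -0.71, -0.46 and -0.19 log2, each overlapping and none passing the test (limma).

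Cdh19, a cadherin gene known from Schwann cells and their precursors, rose and Bex1, an adaptor-like gene linked to neurotrophin receptor signalling, fell in Thy-1+ basal cells. Cdh19 read 4.10, 0.53 and 3.96 in the Thy-1+ arrays and -1.19, -0.28 and 0.18 in the Thy-1- arrays. Its groups did not overlap, although Thy-1+ replicate 2 lay 0.35 log2 above the nearest Thy-1- array. The difference was 3.29 log2 (9.80-fold, SE 0.73, limma adjusted p = 0.0413). The SD of the Cdh19 values themselves was 2.02 in the Thy-1+ and 0.70 in the Thy-1- arrays. Bex1 read -4.49, -0.95 and -3.18 against 0.24, 0.83 and 0.62, a difference of -3.44 log2 (10.8-fold lower, SE 0.71, limma adjusted p = 0.0343). Its lowest Thy-1- array lay 1.19 log2 above the highest Thy-1+ array. The probe set 1444499_at, which has no gene symbol in the annotation, read 3.40, 0.72 and 3.74 against -1.29, -0.29 and -0.56 (3.33 log2, SE 0.71, limma adjusted p = 0.0343).

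These were the only rows past an adjusted p of 0.05 with all 6 arrays as deposited: 2 higher (0.0278% of the 7190 rows) and 1 lower (0.0139%). After each array was centred on its median none passed (0%), and 324 rows had an unadjusted p under 0.05 (limma). The differences of Cdh19 and Bex1 were then 3.71 and -3.02 log2, each with a limma adjusted p of 0.919. Over 11 alternative settings of the deposited values the adjusted p of Cdh19 ran from 0.0001 to 0.999 and that of Bex1 from 0.0003 to 0.999, each under 0.05 in 3 settings, while the differences kept their sign. In both genes 2 of the 3 Thy-1+ arrays carried most of the difference.

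**Figure D2:**
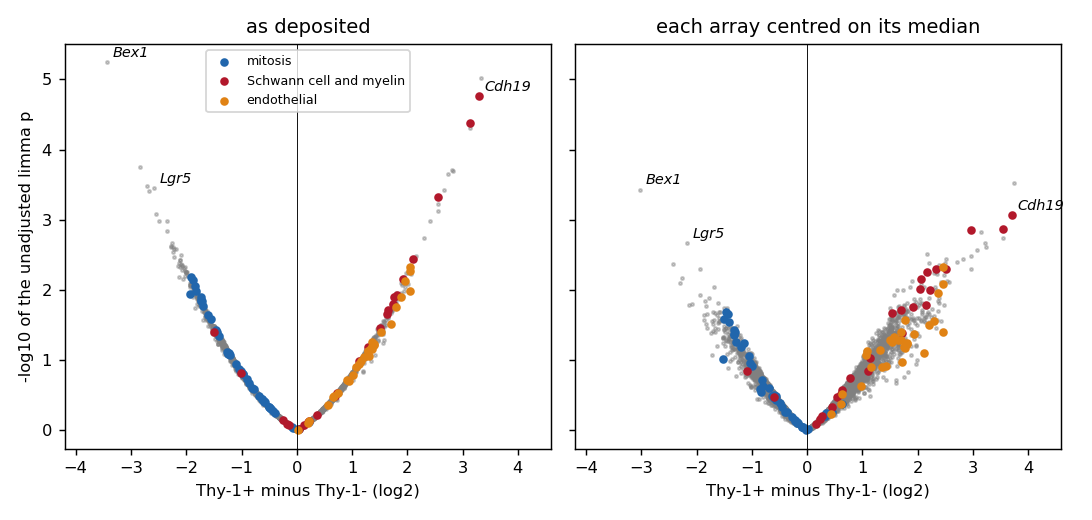
Difference between Thy-1+ and Thy-1- arrays (log2, horizontal) against -log10 of the unadjusted limma p (vertical) for 7190 rows, as deposited on the left and with each array centred on its median on the right. Grey points are all rows and coloured points are members of 3 gene lists; Bex1 and Cdh19 lie at the outer edges in both panels (-3.44 and 3.29 log2 on the left), and their p-values are larger on the right.

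Without Thy-1+ replicate 2, 10 rows passed as deposited (0.139%) and 28 after centring (0.389%), and 9 of them were shared. Cdh19 was then 4.46 and Bex1 -4.40 log2 as deposited (limma adjusted p = 0.0207 for both). The other named genes called as deposited were Gatm, which encodes the first enzyme of creatine synthesis (3.96 log2), the nuclear receptor gene Nr2f1 (3.67), Fhod3, a formin gene that organises actin filaments in muscle (-4.04), Heph, a copper-dependent iron oxidase gene (-3.84), and Tert, the catalytic subunit of telomerase (-3.85). Centring added the glial or neural genes Kcna1 (4.01), Kcna2 (3.46), Art3 (3.63), Cadm4 (3.25) and Abca8a (4.71), the stromal genes Col1a1 (3.71), Col1a2 (3.77) and Sparcl1 (3.07), and Zeb2, S1pr3, Fgl2, Gjb5, Defb11 and Thy1, at 3.17 to 4.40. Tert was the 1 named gene called as deposited that was not called after centring. Heph, Kcna2, Sparcl1 and Defb11 lie outside the naming rule and were chosen after their values were seen.

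More rows separated the groups than passed the test. With all 6 arrays, 134 rows (1.86%) were higher and 345 (4.8%) lower in every Thy-1+ array than in every Thy-1- array as deposited, 202 (2.81%) and 198 (2.75%) after centring, and 85 (1.18%) and 142 (1.97%) under both scalings. An exact permutation test of 3 against 3 arrays cannot go below p = 0.1, two-sided, which each of these rows reached. With no difference between the groups, a fraction of 0.1 of rows is expected to separate in 1 direction or the other. Both directions together, the counts with all 6 arrays stayed below that fraction, so separation alone does not tell a row from chance. Without Thy-1+ replicate 2 the counts under both scalings were 652 higher (9.07%) and 1270 lower (17.7%). Fewer arrays separate more easily by chance. As deposited 29.3% of all rows had a difference above 0, after centring 49.5%, and the median row moved from -0.42 to -0.0088 log2. Centring raised every difference by 0.41 log2, so a difference between -0.41 and 0 as deposited is above 0 after centring, for single genes below as well.

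Among named genes higher without overlap under both scalings, the largest differences after Cdh19 were those of Abca8a, a lipid transporter gene, Gatm and Nr2f1. Abca8a read 3.81, 1.37 and 4.49 against -1.65, 0.92 and 0.99 (3.14 log2, SE 0.73, limma adjusted p = 0.0713). Thy-1+ replicate 2 lay 0.38 log2 above the highest Thy-1- array, and Thy-1- replicate 1 was far below the other arrays of its group. Gatm read 3.30, -0.0042 and 3.62 against -0.85, -0.35 and -0.30, and Nr2f1 read 3.78, 0.54 and 2.92 against -0.48, 0.20 and -0.68. S1pr3, a receptor for sphingosine-1-phosphate, Kcna1, a potassium channel gene of myelinated axons, and Zeb2, a repressor of epithelial adhesion genes that also acts in glia, differed by 2.56, 2.55 and 2.55 log2. Rgs5, a pericyte gene, differed by 2.56 log2 but read 4.39 in Thy-1+ replicate 1 and 0.78 and 0.13 in the other Thy-1+ arrays. Rgs5 and Zeb2 are averages of several probe sets, and in single ones the groups overlapped as deposited. There Thy-1+ replicate 2 read -0.24 for Rgs5 and -0.32 for Zeb2, and the highest Thy-1- arrays 0.14 and -0.28.

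Of named genes lower without overlap under both scalings, the largest differences after Bex1 were those of Fhod3, Chchd6 and Lgr5. Fhod3 read -1.77, 1.92 and -1.61 in Thy-1+ arrays and 2.32, 2.69 and 2.04 in Thy-1- arrays (-2.84 log2, SE 0.73, limma adjusted p = 0.177). Lgr5, an R-spondin receptor and Wnt target that marks stem cells in several epithelia, read -1.43, 0.72 and -1.38 against 1.84, 2.21 and 1.61 (-2.58 log2, SE 0.70, limma adjusted p = 0.213). In both genes Thy-1+ replicate 2 was closest to the Thy-1- arrays, by 0.12 log2 in Fhod3 and 0.89 in Lgr5. Csn3, the kappa-casein gene of milk, read -3.96, -1.85 and -2.25 against -0.80, -0.15 and -0.04, and here replicate 2 lay with the other Thy-1+ arrays. Chchd6, a gene of mitochondrial cristae, and Pbx3, a homeobox cofactor gene, differed by -2.71 and -2.25 log2. Lrwd1, which helps to load the origin recognition complex, and Ttc7b, which anchors a lipid kinase to the membrane, differed by -2.22 and -2.12 log2. None of the genes in these 2 sets other than Cdh19 and Bex1 passed the test with all 6 arrays (limma, smallest adjusted p = 0.0713).

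**Figure D3:**
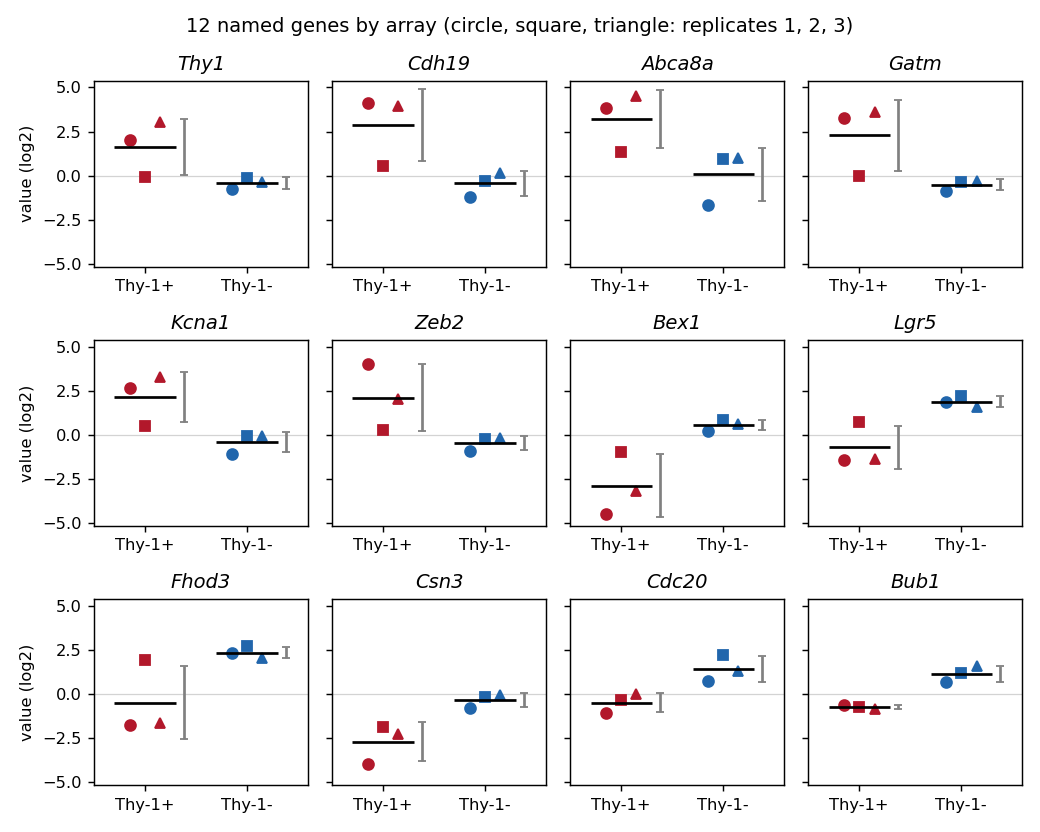
Values (log2, as deposited) of 12 named genes in the 3 Thy-1+ (red) and 3 Thy-1- (blue) arrays, with circles, squares and triangles for replicates 1, 2 and 3, black lines for group means and grey bars for 1 SD on each side of the mean. The red square, Thy-1+ replicate 2, lies nearest the blue points for Thy1 (-0.07), Cdh19 (0.53), Fhod3 (1.92) and Lgr5 (0.72), while all red points of Bub1 lie between -0.83 and -0.61.

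Nerve sheath genes were higher in Thy-1+ basal cells, most of all in replicates 1 and 3. Of 45 genes listed for Schwann cells and myelin 26 were measured, and their median difference was 1.21 log2 as deposited and 1.62 after centring, beside -0.42 and -0.0088 over all rows. The difference was above 0 for 21 of the 26, and 8 (30.8%, against 1.18% of all rows) were higher without overlap under both scalings. The list median was 1.63, 0.54 and 1.76 in Thy-1+ replicates 1, 2 and 3 and -0.31, -0.06 and 0.20 in the Thy-1- arrays, so that replicate 2 also lay above the Thy-1- arrays. Art3, a surface enzyme-like gene, read 2.41, 0.11 and 3.03 against -0.55, -0.13 and -0.09. Chl1, an adhesion gene of neurons and glia, read 1.97, 0.62 and 2.55 against -0.55, 0.24 and 0.15. Aspa, the aminoacylase of myelinating cells, and Ngfr, the low-affinity neurotrophin receptor shared by Schwann and basal cells, differed by 1.92 and 1.13 log2 without overlap.

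Other genes of that list did not follow. Sox10, the transcription factor that defines Schwann cells and is also found in mammary epithelium, read -2.79, 0.54 and 0.10 in Thy-1+ arrays and 0.53, 0.36 and 1.44 in Thy-1- arrays (-1.49 log2). Mbp, a major myelin protein gene, read 2.55, 0.17 and 2.49 against -0.23, 1.06 and 0.48, above the Thy-1- arrays in replicates 1 and 3 but not in replicate 2. Egr2, the regulator of myelination, and Erbb3, the neuregulin receptor of Schwann cells, differed by -0.14 and 0.70 log2 and overlapped. Only Cdh19 of the 26 was called with all 6 arrays (limma), and without Thy-1+ replicate 2 the list held 1 called gene as deposited and 5 after centring, where 0.139% and 0.389% of all rows were called. In bulk RNA, a larger share of cells of 1 type and more RNA per cell cannot be told apart, and the part of admixed nerve sheath cells in these values was not tested. The list was drawn up with earlier results of these data known and is not independent evidence of its direction.

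Endothelial and pericyte genes were highest in Thy-1+ replicate 1. All 30 measured endothelial genes had a difference above 0 (29.3% of all rows did), with a median of 1.28 log2, but the list median was 2.78 in Thy-1+ replicate 1, 0.06 and -0.11 in Thy-1+ replicates 2 and 3, and 0.36, -0.61 and -0.77 in the Thy-1- arrays. Tek, the angiopoietin receptor of endothelium, read 4.45, 1.27 and -0.82 against 1.69, -1.13 and -1.78. Both replicates numbered 1 were the highest of their group. In the CD24medCD49fmed arrays the list median was 2.10, 0.76 and -0.61. Of the 30 genes 3 (10%, against 1.18% of all rows) were higher without overlap under both scalings, among them Ednrb, an endothelin receptor gene (2.05 log2). Of 15 pericyte genes 4 (26.7%, against the same 1.18%) were, namely Rgs5, Rgs4 (2.29), Enpep (1.91) and Gucy1a1 (1.10). The pericyte list median was 2.11 in Thy-1+ replicate 1, 0.17 and 0.39 in replicates 2 and 3, and at most -0.02 in the Thy-1- arrays. After centring it overlapped, at 0.09 in Thy-1+ replicate 2 and 0.13 in Thy-1- replicate 2. Without Thy-1+ replicate 2, 8 of 30 endothelial (26.7%) and 8 of 15 pericyte genes (53.3%) were higher without overlap under both scalings. Of all rows 9.07% were. None of the 45 genes passed the test (limma), and the part of admixed capillary cells was not tested.

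Stromal and stratified epithelial genes lay highest in Thy-1+ replicate 3. Of 24 fibroblast and fibrillar matrix genes, which include Thy1, 17 had a difference above 0 (70.8%, against 29.3% of all rows). The median difference was 0.59 log2 as deposited and 1.00 after centring. The list median was 0.69, 0.18 and 1.25 in Thy-1+ and -0.02, 0.42 and 0.19 in Thy-1- arrays. Col1a1 and Col1a2, the chains of type I collagen, read 2.71 and 2.43 in Thy-1+ replicate 1 and 2.89 and 3.49 in replicate 3, but -0.45 and -0.03 in replicate 2, within the Thy-1- values, which ran from -0.65 to 0.03. Fibroblast genes did not move as 1 group: the matrix genes Col5a2, Col14a1 and Fbln1 differed by -1.06, -0.96 and -0.90 log2, and Pdgfra and Dcn, which mark fibroblasts, by 0.36 and 0.38. With all 6 arrays 1 of the 24 was higher and 1 lower without overlap under both scalings (4.17% each, against 1.18% and 1.97% of all rows). Without Thy-1+ replicate 2, 9 of the 24 (37.5%, against 9.07% of all rows) were higher without overlap under both scalings. In that comparison 1 was lower (4.17%, against 17.7%), and 3 were called after centring (limma), where 0.389% of all rows were. Of 26 genes of cornifying keratinocytes 22 had a difference above 0 (median 0.94), yet the list median was 2.48 in Thy-1+ replicate 3 against -0.78 and -0.30 in replicates 1 and 2 and -0.78, -0.02 and 0.43 in the Thy-1- arrays. None of these 26 was higher without overlap as deposited, where 1.86% of all rows were. Without Thy-1+ replicate 2, 6 (23.1%, against 9.07%) were higher without overlap under both scalings and 1 was lower (3.85%, against 17.7%). Stfa3, a cystatin-family gene, read 0.77, -0.30 and 4.08 in Thy-1+ replicates 1, 2 and 3. Gjb5 of this list read 2.06, -0.25 and 2.77, and Gdpd3 was highest in replicate 1. The part of such cells in the differences was not tested.

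**Figure D4:**
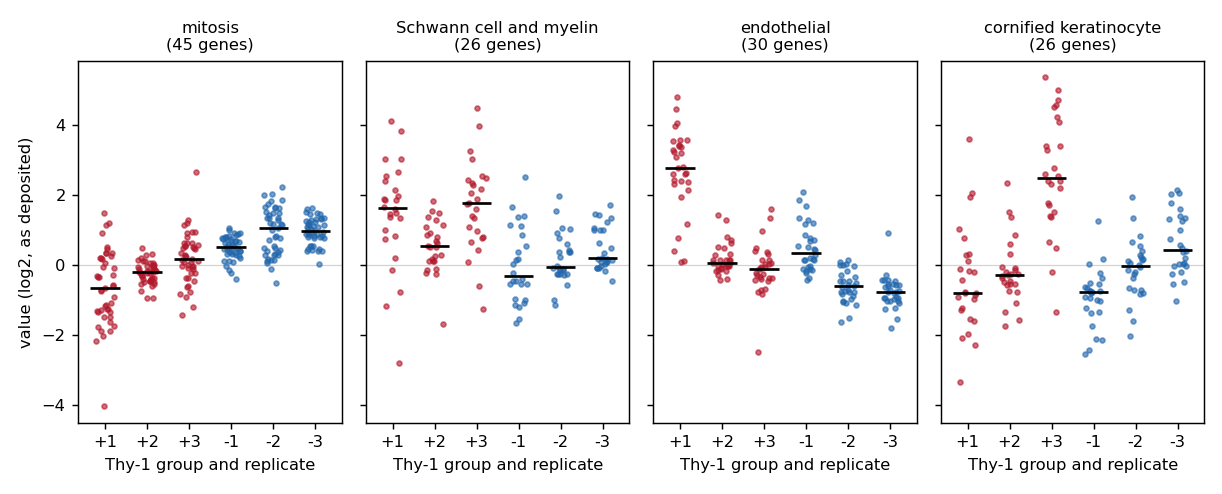
Values (log2, as deposited) of every measured member of 4 gene lists in the 6 arrays, red for Thy-1+ and blue for Thy-1-, with black lines at list medians. Mitosis genes lie lower in the red arrays (medians of -0.65, -0.19 and 0.16 against 0.51 to 1.06), Schwann genes lie highest in Thy-1+ replicates 1 and 3 (1.63 and 1.76), endothelial genes in replicate 1 (2.78) and cornified genes in replicate 3 (2.48).

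Of 9 myeloid genes 7 had a difference above 0 as deposited (median 0.53 log2) and 8 after centring (median 0.94), and none passed the test with all 6 arrays (limma). Under both scalings 1 (11.1%, against 1.18% of all rows) was higher without overlap, and without Thy-1+ replicate 2 there were 5 (55.6%, against 9.07%). Fgl2, a fibrinogen-like gene of macrophages and endothelium, read 4.11, 0.28 and 2.05 against 0.61, -1.25 and -1.39 (2.82 log2, limma adjusted p = 0.177), and Fgr, a myeloid kinase gene, read 3.79 in Thy-1+ replicate 1 and at most 0.63 elsewhere. Lyz2, the macrophage lysozyme gene, was the 1 without overlap under both scalings with all arrays, at 0.12, 0.93 and 0.10 against -0.27, -0.30 and -0.36 (0.69 log2). As deposited 2 myeloid genes (22.2%, against 1.86% of all rows) were higher without overlap. Of 13 adipocyte and capillary lipid genes the median was 0.63, and Cd36, Aqp7 and Fabp4 read 3.35, 2.92 and 3.07 in Thy-1+ replicate 1, the array in which endothelial genes were high. Lymphoid genes (Ms4a1 at -0.45 and Ighm at 0.01 log2) and the 1 erythroid gene, Hba-a2 (0.86), did not separate the groups, and none of the 14 skeletal muscle genes listed had a row.

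Mitotic genes were lower in Thy-1+ basal cells. Of 67 listed genes of mitosis and spindle 45 were measured, 43 had a difference below 0, and the median difference was -1.01 log2 as deposited and -0.59 after centring. As deposited 23 (51.1%, against 4.8% of all rows) were lower without overlap, and under both scalings 11 (24.4%, against 1.97%). The list median was -0.65, -0.19 and 0.16 in Thy-1+ arrays and 0.51, 1.06 and 0.97 in Thy-1- arrays, which did not overlap as deposited. After centring the medians were 0.09, -0.26 and 0.67 against 0.34, 1.21 and 0.92, which did. Thy-1+ replicate 2 lay here on the side of its label, and without it 11 of 45 (24.4%) were lower without overlap under both scalings, beside 17.7% of all rows. None passed the test (limma).

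Bub1, the checkpoint kinase of unattached kinetochores, read -0.61, -0.74 and -0.83 in the Thy-1+ arrays and 0.69, 1.17 and 1.59 in the Thy-1- arrays (-1.88 log2, SE 0.68, limma adjusted p = 0.699). As deposited the Thy-1+ arrays spanned 0.22 log2 and lay 1.30 below the lowest Thy-1- array. After centring Bub1 read 0.13, -0.81 and -0.32 against 0.52, 1.32 and 1.55, so the groups were wider and closer. Cdc20, which activates the anaphase-promoting complex, read -1.09, -0.36 and -0.02 against 0.74, 2.23 and 1.31 (-1.92 log2). After centring its highest Thy-1+ array, at 0.49, lay just below its lowest Thy-1- array, at 0.57. Ccnb2, a mitotic cyclin, and Cenpe, a kinetochore motor, differed by -1.84 and -1.74 log2, also without overlap under both scalings, as did Cdca5, Cenpk, Ncapg, Nuf2, Plk4, Spag5 and Spc25, which serve cohesion, kinetochores, condensin, centrioles and the spindle. Smc4, a condensin subunit, had the largest difference (-1.93) through 1 array, at -4.03 in Thy-1+ replicate 1 and 0.48 and 0.54 in the other Thy-1+ arrays. Mki67, the Ki-67 gene of cycling cells, and Cdk1, the mitotic kinase, differed by -0.63 and -0.07 log2 and overlapped, and Cdca3 and Cdkn3 were the 2 members above 0, at 0.03 and 0.22.

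Mitotic promoters often carry the cell cycle genes homology region (CHR) and CCAAT boxes. The promoters of Cdc20 and Bub1 are shown because these genes led the mitosis list without overlap under both scalings. Each is a 300-base window around the RefSeq start, 5' to 3' in the sense of the gene, with capitals for the motifs TTTGAA (or TTCAAA), its variant TTCGAA, and CCAAT (or ATTGG), searched on both strands; none of these motifs contains another. The coordinates are of GRCm38.p6, both on the minus strand: chr4:118437294-118437593 for Cdc20 and chr2:127831810-127832109 for Bub1.
Cdc20: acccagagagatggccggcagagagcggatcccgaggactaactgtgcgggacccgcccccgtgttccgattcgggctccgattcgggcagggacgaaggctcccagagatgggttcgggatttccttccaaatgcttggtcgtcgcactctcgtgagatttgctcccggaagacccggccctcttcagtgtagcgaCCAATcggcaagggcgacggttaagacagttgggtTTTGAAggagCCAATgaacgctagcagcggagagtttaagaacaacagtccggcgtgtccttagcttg
Bub1: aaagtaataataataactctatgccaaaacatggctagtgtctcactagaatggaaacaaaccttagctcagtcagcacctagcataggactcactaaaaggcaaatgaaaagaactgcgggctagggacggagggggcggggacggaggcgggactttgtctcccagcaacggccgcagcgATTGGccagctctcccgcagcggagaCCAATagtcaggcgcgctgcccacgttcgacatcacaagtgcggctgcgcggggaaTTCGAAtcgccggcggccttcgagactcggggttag
The Cdc20 promoter held 1 TTTGAA and 2 CCAAT boxes, and the Bub1 promoter no TTTGAA, 1 TTCGAA and 2 CCAAT boxes. Of 45 mitosis genes 38 had a promoter in the RefSeq table. Of these, 31 (81.6%) held TTTGAA or TTCGAA on either strand, against 19.4% of all 27025 promoters, and 28 (73.7%) held CCAAT, against 37.9%. Among the 21 whose groups did not overlap as deposited 15 (71.4%) held TTTGAA or TTCGAA, and among the 17 that overlapped 16 (94.1%) did. A match is a description of letters and not of a bound site.

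DNA replication genes were lower as deposited and less so after centring. All 23 measured genes had a difference below 0 as deposited (median -0.78 log2) and 20 after centring (median -0.37). As deposited 10 (43.5%, against 4.8% of all rows) were lower without overlap, and under both scalings 1 (4.35%, against 1.97%), Pola1, the catalytic subunit of DNA polymerase alpha (-1.42). Without Thy-1+ replicate 2 the count under both scalings was 2 (8.7%), below the 17.7% of all rows. Rrm2 and Cdt1, for nucleotide reduction and origin licensing, read -2.48 and -2.56 in Thy-1+ replicate 1 and between -0.17 and 0.28 in the other two, with Thy-1- arrays at 0.67 to 1.14 and 0.14 to 0.66.

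**Figure D5:**
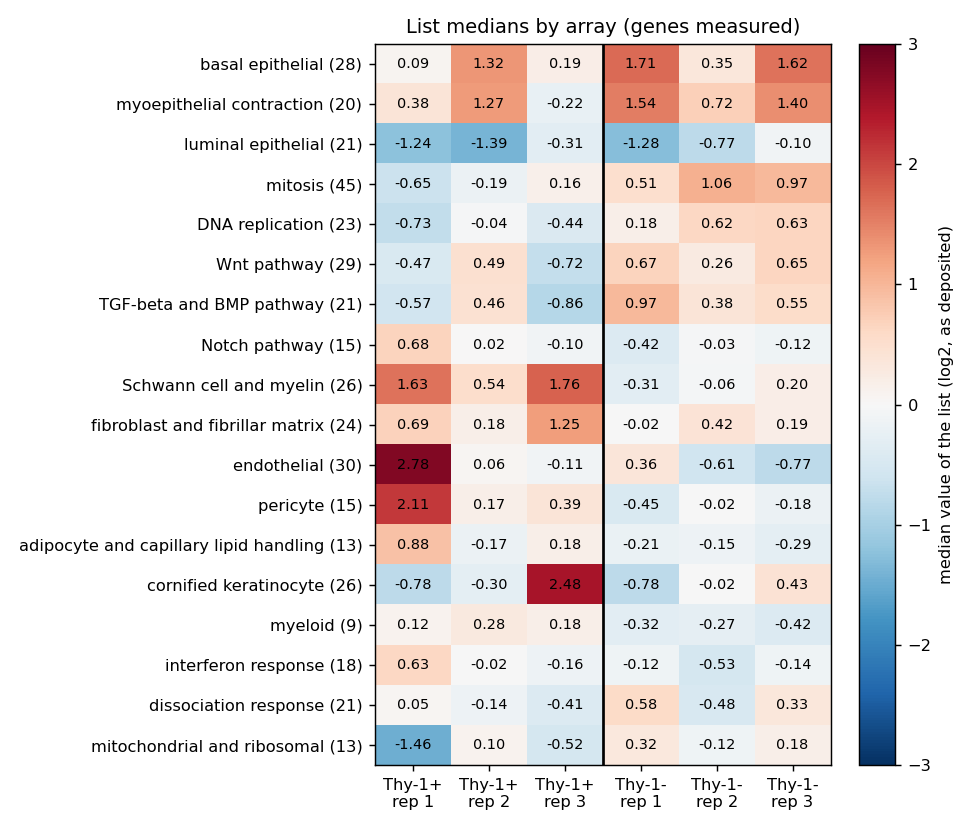
Median value (log2, as deposited) of 18 gene lists, with the number of genes measured, in each Thy-1+ and Thy-1- array; red is above and blue below the mean of the 14 arrays. Thy-1+ replicate 2 resembles Thy-1- replicate 1 in its basal (1.32 and 1.71) and myoepithelial (1.27 and 1.54) medians, and mitosis has lower medians in the Thy-1+ than in the Thy-1- arrays.

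Basal genes were low in Thy-1+ replicates 1 and 3 and in Thy-1- replicate 2. Of 28 basal genes 25 had a difference below 0 (median -0.51 log2, close to the -0.42 of all rows; -0.09 after centring). The list median was 0.09, 1.32 and 0.19 in Thy-1+ and 1.71, 0.35 and 1.62 in Thy-1- arrays. Krt5 and Trp63, which define basal cells, differed by -0.01 and -0.49 log2. Dkk3 and Wif1, secreted Wnt modulators, differed by -1.71 and -1.45, and Ltbp2, a matrix gene, by -1.39. Vsnl1, a neuronal calcium sensor gene, was the 1 basal gene lower (-1.29) and Ngfr the 1 higher (1.13) without overlap under both scalings (3.57% of the list each, beside 1.97% and 1.18% of all rows). Without Thy-1+ replicate 2, 7 of 28 (25%) were lower in this way, beside 17.7% of all rows. Of 20 contraction genes 16 were below 0 (median -0.75, and -0.33 after centring), with Smtn, Actg2 and Synm at -1.63, -1.35 and -1.34 and Oxtr, the oxytocin receptor, at -1.09. Kcnmb1, a smooth muscle potassium channel subunit, was lower without overlap (-1.20). None passed the test (limma).

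Luminal genes did not separate the groups. The median difference of 21 luminal genes was -0.19 log2 as deposited and 0.23 after centring, with list medians of -1.24, -1.39 and -0.31 in Thy-1+ and -1.28, -0.77 and -0.10 in Thy-1- arrays. Lcn2, an iron-sequestering defence gene, differed by -1.73 and Cldn1, a tight junction gene, by 1.17 log2, both overlapping. Among 10 hormone-sensing genes (median -0.33, and 0.084 after centring) Esr1, the oestrogen receptor, differed by -0.56, Prom1 by -0.72 and Tbx3, a regulator of hormone-sensing cells, by -0.50. Of 15 luminal progenitor and alveolar genes (median -0.19, and 0.23 after centring) Tspan8 was lower without overlap under both scalings (-1.72), Lif, a cytokine gene, only as deposited (-0.84), and Mfge8 differed by -0.78. The 10 milk genes were split 5 and 5 around 0 as deposited, with 7 above 0 after centring: Csn3 and Muc15 differed by -2.36 and -1.50 log2, and Glycam1, known from lymph node vessels as well as milk, by 1.55 with 4.19 in Thy-1+ replicate 1.

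Genes linked to stem cells went in both directions. Of 21 such genes 15 had a difference below 0 (median -0.56 log2, and -0.15 after centring). The share above 0 as deposited, 28.6%, was close to the 29.3% of all rows. Lgr5 and Tspan8 were lower without overlap under both scalings (2 of 21, 9.52%, against 1.97% of all rows). Tert read -2.65, 1.20 and -2.80 in Thy-1+ and 0.68, 1.96 and 0.75 in Thy-1- arrays (-2.55 log2, limma adjusted p = 0.332), so that Thy-1+ replicate 2 lay within the Thy-1- range. Rarres2, which encodes the retinoid-induced chemoattractant chemerin, read 2.00, 0.20 and 2.04 against -0.42, -0.16 and -0.11 (1.64 log2, SE 0.69, limma adjusted p = 0.755). As the average of its 2 probe sets it was higher without overlap under both scalings. In 1 of the 2 the groups overlapped as deposited, with Thy-1+ replicate 2 at -0.18 and Thy-1- replicates 2 and 3 at -0.07 and -0.14. Aldh1a1, a retinal dehydrogenase, read 0.73, 2.62 and 2.34 against 1.03, 0.44 and 0.95 (1.09 log2), with Thy-1+ replicate 2 highest and replicate 1 within the Thy-1- range, and did not overlap after centring. Procr, the protein C receptor of stem-like basal cells and endothelium, read 2.33, 0.48 and 0.05 against 1.54, 0.78 and 0.21 (0.11 log2). Cdkn1a, the p21 inhibitor of cyclin-dependent kinases, differed by 0.11 log2, with overlapping values. Of the other retinoid genes, Aldh1a7 and Rdh10 differed by -1.56 and -1.18 log2.

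Wnt and TGF-beta pathway genes had medians somewhat below the -0.42 of all rows. Of 29 Wnt genes 22 had a difference below 0 (median -0.62 log2, and -0.21 after centring). The receptors Lgr5 and Rnf43, the latter a ligase that removes Frizzled from the membrane and is itself a Wnt target, were lower without overlap under both scalings (2 of 29, 6.9%, against 1.97% of all rows), Rnf43 at -2.11, 0.43 and -1.32 against 0.67, 0.75 and 0.98. The Frizzled receptor Fzd7 differed by -1.50, the ligands Wnt5a and Wnt5b by -1.41 and -1.36, and the potentiator Rspo1 by 0.64 log2. Without Thy-1+ replicate 2, 11 of 29 Wnt genes (37.9%) and 8 of 21 TGF-beta and BMP genes (38.1%) were lower without overlap under both scalings, beside 17.7% of all rows. In the TGF-beta list (median -0.60, and -0.19 after centring) the decoy receptor Bambi, the receptor Tgfbr1 and the antagonist Fst differed by -1.85, -1.75 and -1.45 log2, and the inhibitor Smad7 was lower without overlap (-1.34). Notch genes had a median of 0.40 (10 of 15 above 0), with Heyl and Notch4 at 2.90 and 1.86 in Thy-1+ replicate 1 and at most 0.18 in the other two, and Rbpj, the pathway's DNA-binding protein, at -0.82. Of 16 genes of epithelial-mesenchymal transition 7 were above 0 (median -0.03, and 0.38 after centring), with Zeb2, Zeb1 and Fn1 at 2.55, 1.29 and 1.07. None of these passed the test (limma).

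The lists of cadherins and of neurotrophin and guidance genes held the markers Cdh19 and Bex1, so the calls in them repeat those above. Of 13 cadherins (median -0.43 log2) Cdh19 was the 1 called, where 0.0278% of all rows were called higher. Pcdh17 differed by 1.71 through 4.79 in Thy-1+ replicate 1, Pcdh7 by -1.17, and Cdh1 (E-cadherin) and Cdh2 (N-cadherin) by -0.73 and -0.03 log2. Of 30 neurotrophin and axon guidance genes (median -0.33, and 0.079 after centring) Bex1 was the 1 called, where 0.0139% of all rows were called lower. The Bex1 paralogue Bex2 differed by -0.50. Bex1 and Ntn4, a netrin of basement membranes (-1.34), were lower without overlap under both scalings (6.67%, against 1.97% of all rows). Ngfr was higher in this way (3.33%, against 1.18%). The semaphorin gene Sema3g and its receptor Nrp1 read 4.06 and 2.92 in Thy-1+ replicate 1 and at most 0.51 in Thy-1+ replicates 2 and 3.

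Genes of 2 stress responses and of mitochondria gave few separations between the groups with all 6 arrays. Of 18 interferon-stimulated genes 15 had a difference above 0 as deposited (median 0.40 log2) and 18 after centring (median 0.82). Of all rows 29.3% and 49.5% did. None of the 18 was higher without overlap as deposited (1.86% of all rows), with Ifit3, Iigp1 and Rsad2 at 1.27, 1.10 and 1.09. Without Thy-1+ replicate 2, 4 (22.2%, against 9.07% of all rows) were higher without overlap under both scalings. Of 21 genes induced by tissue dissociation 15 were below 0 as deposited and 6 after centring (median -0.33 and 0.086), Ccn2 at -1.74, Gadd45b at -0.64 and the immediate early gene Fosb at 0.65 log2. Of 13 mitochondrial and ribosomal genes 12 were below 0 as deposited (median -0.49) and 8 after centring (median -0.08). Their list median was -1.46 in Thy-1+ replicate 1, the array with the lowest overall median, with Mrpl13, Timm10 and Cox7c differing by -1.92, -1.20 and -1.01 log2.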

How the data were processed

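RNA of 14 sorted samples was measured on Affymetrix mouse genome arrays. The deposited table holds log2 values. To make it the authors used RMA in the program MIDAS, dropped dim probe sets and those that varied by less than 4-fold, and subtracted each probe set's mean. GCRMA is also named in the submitters' processing notes, and no version of either is given. Of 9645 probe sets, 8499 had 1 symbol (6044 genes, averaged where several probe sets shared a gene), 199 several and 947 none, giving 7190 rows. Of 29 genes named below with several probe sets, 3 (Cdkn1a, Ighm, Krt14) had probe sets of opposite sign. Overlap of the groups was judged on averaged values, and single probe sets of Lif, Rarres2, Rgs5 and Zeb2 overlapped as deposited. Filtering and centring leave no absolute levels or background signal, and the number of arrays limits the precision. Some genes of the gate, including CD24 and CD49f, are not reported here.

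Groups were compared with limma 3.58.1 in R 4.3.3 on the 6 arrays, two-sided, at a Benjamini-Hochberg adjusted p under 0.05 over 7190 rows, on values as deposited and with each array centred on its median. The limma fit pools the variance over rows, with 89.94 prior degrees of freedom as deposited and 12.15 after centring. In simulated data with 200 rows changed by 3 log2, 100 were recovered, with 6 false calls. The simulated noise was independent between rows and arrays, without shifts between arrays. These counts therefore do not give the power or error rate for the real arrays. Alternatives were quantile normalisation, single probe sets, all 14 arrays in 1 fit, a replicate block, array weights, a difference of 1 log2 or more, rank products in Python 3.11.15 (100 permutations, p under 0.01) and leaving out each array. Tables used numpy 2.4.6, pandas 2.3.3 and scipy 1.17.1, and figures matplotlib 3.10.9. Promoters are from RefSeq (GRCm38.p6), which held 65 of the 94 genes named by rule.

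Genes were named by rule: Thy1, Cdh19, Bex1, Lgr5, genes named by the study, called genes, the 8 largest differences each way without overlap under both scalings, and 3 members per list. Other list members named in the text were chosen after their values were seen. The groups' marker genes and the 30 gene lists were chosen with earlier results of these data known. Lists are described by counts and medians, with no test.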

Additional observations from a re-analysis of the deposited data

How the results depend on the processing

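The count of called rows (3 with all arrays as deposited, limma) became 0 after centring each array on its median, after quantile normalisation, with single probe sets and with all 14 arrays in 1 fit, where 324, 326, 541 and 1325 rows had an unadjusted p under 0.05. It was 199 (53 higher, 146 lower) with array weights, which set Thy-1+ replicates 1 and 2 to 0.31 and 0.35, but on median-centred values array weights and the fit of all 14 arrays each gave 0. It was 3 with a difference of 1 log2 or more, and 165 (97 higher, 68 lower) by rank products at an unadjusted p. Leaving out each array gave 0 to 10 rows, and after centring 0 to 28, in each case above 0 only without Thy-1+ replicate 2. The cause was not tested.

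Deviations of same-numbered arrays from their group means correlated at -0.002, -0.16 and 0.25, and those of differently numbered arrays at -0.32 to 0.31. With 3 arrays per group, these values cannot tell if the replicate numbers pair the groups. With the replicate number as a block 5 rows were called as deposited and 6 after centring, the latter including Cdh19 (3.71 log2) and Bex1 (-3.02), each at a limma adjusted p of 0.0379.

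Of 1034 recomputed differences of 94 named genes, 954 kept sign and side of the threshold, 36 newly passed it, 16 no longer passed and 28 changed sign; of 232 recomputed list medians 206 moved by under 1 SD. Sign changes were of genes that did not pass the test. With array weights Procr was -0.41, Krt18 0.0065, Krt19 0.21, Glycam1 -0.22 and Ms4a1 0.26 log2. After quantile normalisation Procr was -0.080, Krt19 0.092 and Ms4a1 0.042, and after median centring Krt19 was 0.23. Leaving out 1 array gave -0.58 to 0.57 for Procr, -0.53 to 0.58 for Cdkn1a, -0.41 to 0.69 for Krt14, -0.90 to 0.71 for Krt19, -0.071 to 1.69 for Pecam1, -0.11 to 0.98 for Ptprc, -1.28 to 0.035 for Rbpj, -1.14 to 0.51 for Ms4a1, -0.45 to 0.41 for Ighm, -0.21 to 1.52 for Hba-a2 and -0.066 to 2.67 for Pcdh17. The genes whose sign changed here therefore have no settled direction. Beside Krt18, Krt19, Krt14, Procr and Cdkn1a they include Pecam1, Ptprc, Rbpj, Glycam1, Ms4a1, Ighm, Hba-a2 and Pcdh17.

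The deposited table holds no signal over background, and its row filter used all 14 arrays.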
